A study of Mus musculus with 6 samples.

Results

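Cytochrome c oxidase, complex IV of the respiratory chain, passes electrons from cytochrome c to oxygen in the inner mitochondrial membrane. Several of its nuclear subunits exist as a common form and as a form tied to low oxygen or to striated muscle. The 9 genes described here are 4 such pairs and a protease. They are Cox4i2 and Cox4i1, Ndufa4l2 and Ndufa4, Cox6a2 and Cox6a1, Cox7a1 and Cox7a2, together with Lonp1, and all 9 had a row among the 13843 genes of the table. They were picked by symbol from knowledge of the isoforms and with earlier results from these libraries in view, in which Cox4i2 was higher and Cox6a2 and Ndufa4 lower in knockout ventricles. The differences between knockouts and controls are therefore a description of these genes and carry no p-values.

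The libraries came from ventricles of single mouse embryos at E12.5 on a C57BL/6 background, freed of atria and valve tissue. The knockout genotype, Vhl(flox/flox) / Nkx2.5(Cre/+), has both Vhl alleles floxed and Cre recombinase in 1 Nkx2-5 allele, which is active in cardiac progenitors and their descendants. The control genotype is Vhl(flox/flox) / Nkx2.5(+/+), so every embryo carried floxed Vhl and the groups differed by the Cre allele, and with it by 1 copy of Nkx2-5, as well as by loss of Vhl. There were 3 libraries labelled knockout and 3 control libraries. VHL marks hypoxia-inducible factors (HIF) for destruction when oxygen is present, so its loss lets these factors act at normal oxygen.

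The deposited values are whole reads divided by 1 factor per library, on the CPM scale, and each library held 9067805 to 12592902 reads. Knockouts 1 and 2 had Vhl at 11.1 and 10.3 and the library labelled knockout 3 had it at 34.5, against 33.7, 36.3 and 38.6 in controls 1 to 3. The third knockout label is thus contradicted by the targeted gene, and that library is shown apart throughout. Setting it aside because of Vhl makes the remaining comparison partly circular for genes that follow Vhl. With all 6 libraries as labelled, limma called 0 of 13843 genes (0% of those tested), 859 had an unadjusted p under 0.05, and edgeR also called 0, with 907 under 0.05. Knockouts 1 and 2 and controls 1 and 2 are littermates in pairs, from litters 1 and 2. The labels place control 3 in litter 3 and the library labelled knockout 3 in litter 4, whereas the description of the design speaks of 3 litters. The 10 heart muscle markers, Myh6, Myh7, Tnnt2, Tnni3, Actn2, Actc1, Myl2, Myl3, Ttn and Ryr2, were all measured. They summed to 40252 and 36165 in knockouts 1 and 2 and to 35126 to 43218 in controls, and limma and edgeR called 0 of the 10, with 1, Ryr2, at an unadjusted p under 0.05 (limma).

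COX4I1 and COX4I2 are alternative forms of subunit 4, which takes part in regulating the enzyme by ATP. In human and mouse cells HIF raises COX4I2 and the mitochondrial matrix protease LONP1, which degrades COX4I1, so that one subunit replaces the other. NDUFA4, once placed in complex I, is now counted as a subunit of complex IV, and its paralogue NDUFA4L2 is induced by HIF and lowers respiration in several cell types. COX6A2 and COX7A1 are the forms of heart and skeletal muscle, which in the rodent heart take over from COX6A1 and COX7A2 around birth and after.

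Because the paralogues of a pair could share reads, the most alike 75-base stretches of their coding sequences were compared, 75 bases being the read length. They are shown as GENCODE M21 transcripts on GRCm38, 5′ to 3′, with differing bases in capitals.
Cox4i2: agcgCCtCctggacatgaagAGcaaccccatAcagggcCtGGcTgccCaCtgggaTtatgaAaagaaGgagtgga
Cox4i1: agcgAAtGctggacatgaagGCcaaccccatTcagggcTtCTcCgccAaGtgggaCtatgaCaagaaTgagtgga
Ndufa4l2: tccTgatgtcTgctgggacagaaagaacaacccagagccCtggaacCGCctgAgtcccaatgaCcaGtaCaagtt
Ndufa4: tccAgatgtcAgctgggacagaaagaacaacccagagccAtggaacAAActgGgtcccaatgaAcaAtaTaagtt
Cox6a2: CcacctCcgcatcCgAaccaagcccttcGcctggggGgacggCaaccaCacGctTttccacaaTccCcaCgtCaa
Cox6a1: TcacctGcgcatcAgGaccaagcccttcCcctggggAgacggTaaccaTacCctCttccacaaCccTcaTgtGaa
Cox7a1: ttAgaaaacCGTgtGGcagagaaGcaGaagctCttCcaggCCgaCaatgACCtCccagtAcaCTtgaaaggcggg
Cox7a2: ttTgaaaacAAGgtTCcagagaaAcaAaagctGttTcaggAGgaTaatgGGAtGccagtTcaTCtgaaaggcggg
The Ndufa4 pair was the closest, with 10 differing bases in that window and a longest identical run of 28 bases. The Cox6a pair differed at 14 bases, the Cox4 pair at 15 and the Cox7a pair at 20. In none of these 4 pairs could a full-length read match both members without mismatch in coding sequence, so the ratios below were not blurred by exact shared reads between partners. Outside the pairs, 7 of the 9 genes shared no 75-base stretch with another annotated gene. Cox4i1 shared 4.61% of its stretches with its opposite-strand neighbour Emc8, and Cox6a1 shared 4.58% with AC148174.2. The libraries did not mark strand, so reads from the overlap of Cox4i1 with Emc8 cannot be assigned to one gene. No annotated gene overlapped the Cox6a1 locus, and AC148174.2 had no row in the table. The part of AC148174.2 in the Cox6a1 reads was not tested.

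The low-oxygen form of subunit 4, Cox4i2 (ENSMUSG00000009876, chr2:152754173-152765037, plus strand), was at 41.6 and 37.5 in knockout embryos 1 and 2, 0.916 in the library labelled knockout 3, and 0.444, 2.35 and 1.05 in controls 1 to 3. Both knockouts lay far above every control, and the library labelled knockout 3 sat among the controls. The read numbers behind these values were 515 and 428 in the knockouts, 10 in the library labelled knockout 3, and 4, 28 and 10 in the controls. Cox4i2 was therefore close to silent in control ventricles at this depth. Its mean of 39.6 ± 2.91 (SD, n = 2) in knockouts against 1.28 ± 0.974 (SD, n = 3) in controls is a ratio of 30.9, and the lowest knockout stood 16.0-fold above the highest control. Control 2 weighs on that ratio, which was 53.0 without it. On the log2(value + 1) scale, which shrinks the change of genes this low, the difference was 4.24 ± 0.32 (SE), the fifth largest rise of all 13843 genes, at rank 5.

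The common form Cox4i1 (ENSMUSG00000031818, chr8:120668222-120674207, plus strand) was at 378 and 332 in knockout embryos 1 and 2, 397 in the library labelled knockout 3, and 414, 396 and 389 in controls 1 to 3. The 2 knockouts lay below the lowest control, by a small margin in knockout 1. Its log2 difference was -0.17 ± 0.08 (SE), with means of 355 ± 32.6 (SD, n = 2) in knockouts and 400 ± 13.0 (SD, n = 3) in controls. Taken from knockout 2 alone the difference was -0.27 and from knockout 1 alone -0.08, so its size rests on the embryo used.

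Ndufa4l2 (ENSMUSG00000040280, chr10:127514967-127517154, plus strand) behaved much like Cox4i2. It was at 34.3 and 46.1 in knockout embryos 1 and 2, 1.19 in the library labelled knockout 3, and 0.666, 2.60 and 1.68 in controls 1 to 3. The groups again did not overlap, and knockout 2 was the higher of the 2 knockouts here, whereas knockout 1 was for Cox4i2. The reads numbered 424 and 526 in the knockouts, 13 in the library labelled knockout 3 and 6, 31 and 16 in the controls. The ratio of the means, 40.2 ± 8.36 (SD, n = 2) over 1.65 ± 0.968 (SD, n = 3), was 24.4, and 34.3 without control 2. The log2 difference was 4.01 ± 0.31 (SE), at rank 8 of all genes. Shmt2, the mitochondrial serine hydroxymethyltransferase gene on the opposite strand, shares 32 exonic bases with Ndufa4l2, or 2.92% of its exons. It was at 123 and 139 in knockouts 1 and 2 and 58.4 to 67.7 in controls. The 32 bases are fewer than the 75 of a read, and Ndufa4l2 shared 0 of its 75-base stretches with another annotated gene. The part of Shmt2 in the Ndufa4l2 reads was not tested.

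Its paralogue Ndufa4 (ENSMUSG00000029632, chr6:11900292-11907497, minus strand) went the other way. It was at 185 and 163 in knockout embryos 1 and 2, 249 in the library labelled knockout 3, and 255, 246 and 259 in controls 1 to 3. Every control was above both knockouts, and the library labelled knockout 3 fell within the control range. The knockout mean of 174 ± 15.4 (SD, n = 2) was 0.686 of the control mean of 253 ± 6.91 (SD, n = 3), and the log2 difference was -0.54 ± 0.08 (SE). Ndufa4 stood at rank 372 from the lowest of the 13843 differences.

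The muscle form Cox6a2 (ENSMUSG00000030785, chr7:128205435-128206387, minus strand) was at 60.9 and 60.2 in knockout embryos 1 and 2, 98.0 in the library labelled knockout 3, and 91.2, 96.2 and 92.5 in controls 1 to 3. The values within each group were tight and the groups lay well apart. The library labelled knockout 3 was slightly above all controls. The ratio of the means was 0.649 and the log2 difference -0.62 ± 0.07 (SE), rank 272 from the lowest. Its ubiquitous partner Cox6a1 (ENSMUSG00000041697, chr5:115345642-115348981, minus strand) was at 224 and 197 in knockout embryos 1 and 2, 197 in the library labelled knockout 3, and 235, 228 and 213 in controls 1 to 3. Here knockout 1 lay inside the control range, and the log2 difference was -0.10 ± 0.08 (SE), with -0.01 from knockout 1 alone and -0.19 from knockout 2 alone.

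The other muscle form, Cox7a1 (ENSMUSG00000074218, chr7:30184144-30186078, plus strand), was at 44.1 and 34.3 in knockout embryos 1 and 2, 32.3 in the library labelled knockout 3, and 34.5, 32.5 and 35.0 in controls 1 to 3. Knockout 1 was above all other libraries and knockout 2 was inside the control range, so the groups overlapped. The log2 difference of 0.19 ± 0.12 (SE) was 0.37 with knockout 1 as the only knockout and 0.01 with knockout 2 as the only one. Cox7a2 (ENSMUSG00000032330, chr9:79755361-79759878, minus strand), the form found in most tissues, was at 198 and 175 in knockout embryos 1 and 2, 193 in the library labelled knockout 3, and 213, 189 and 199 in controls 1 to 3. These groups overlapped too, with a log2 difference of -0.11 ± 0.09 (SE), which was -0.01 from knockout 1 alone and -0.20 from knockout 2 alone. The 2 muscle forms thus did not move together in these embryos, as Cox6a2 was lower in both knockouts and Cox7a1 in neither.

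Lonp1 (ENSMUSG00000041168, chr17:56614297-56626887, minus strand) was at 212 and 224 in knockout embryos 1 and 2, 136 in the library labelled knockout 3, and 135, 137 and 123 in controls 1 to 3. Both knockouts were above every control, and the library labelled knockout 3 was not. The knockout mean of 218 ± 8.17 (SD, n = 2) was 1.65-fold the control mean of 132 ± 7.48 (SD, n = 3), with a log2 difference of 0.72 ± 0.07 (SE), and it was 0.65 within litter 1 and 0.70 within litter 2. Lonp1 lies on the chromosome of the Cre allele, 29.8 Mb from Nkx2-5. Of the 46 other measured genes within 1 Mb of Lonp1, 3 were called higher and 1 lower, against 3.01% and 1.24% of all genes. The log2 differences of these neighbours ran from -0.55 to 2.63, with a median of 0.01. The part of linked sequence in the Lonp1 difference was not tested.

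**Figure D1:**
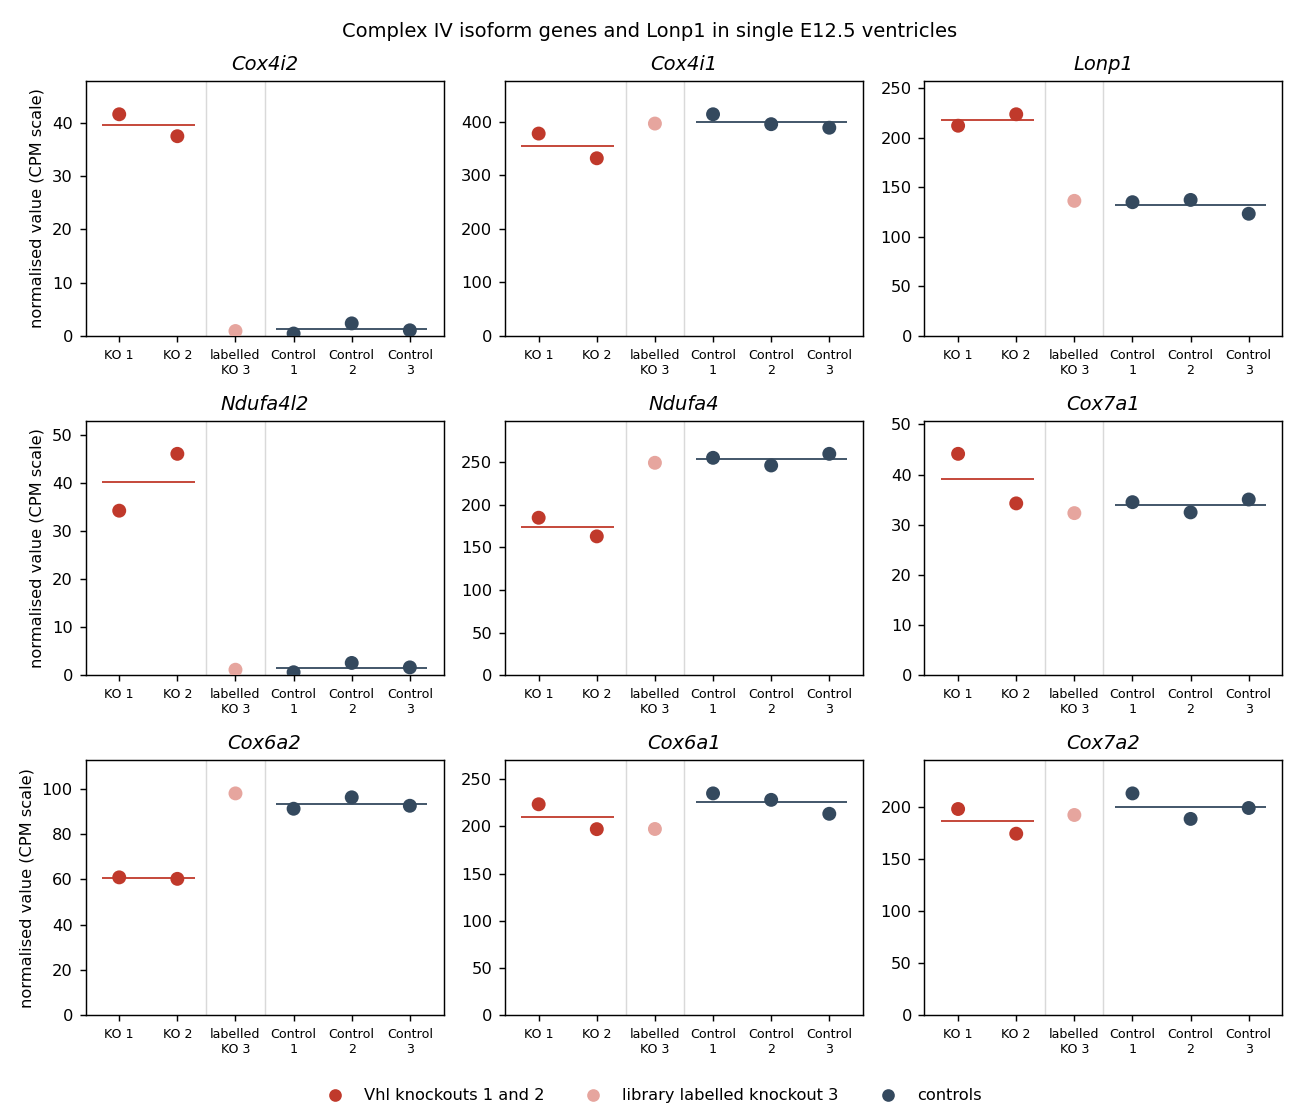
Normalised value (CPM scale, y axis from 0) of each of the 9 genes in the 6 single-embryo libraries, with the mean of knockouts 1 and 2 and of the 3 controls as horizontal lines. Cox4i2 and Ndufa4l2 are near 0 in every library except knockouts 1 and 2. The library labelled knockout 3 lies within the control range in 6 of the 9 panels. It lies below the controls for Cox6a1, level with knockout 2, and for Cox7a1, and above them for Cox6a2.

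In counts, limma over all 13843 genes called 3 of the 9 genes higher (Cox4i2, Ndufa4l2 and Lonp1) and 2 lower (Ndufa4 and Cox6a2) in knockouts 1 and 2, where 3.01% of all genes were called higher and 1.24% lower, 4.25% in all. With litter as a block, where 8.13% of all genes were called, the same 5 of the 9 were called. The remaining 4, Cox4i1, Cox6a1, Cox7a1 and Cox7a2, were not called. The ranges of knockouts and controls did not overlap for 6 of the 9, against 35.1% of all genes, with both knockouts higher in 18.1% and lower in 17.0%. Of these 6, Cox4i2, Ndufa4l2 and Lonp1 were higher and Cox4i1, Ndufa4 and Cox6a2 lower. Since the genes were chosen with this contrast in view, nothing further is read from these counts. The library labelled knockout 3 was inside the control range for 6 of the 9 genes, and 43.9% of all genes were outside it. The 3 exceptions were Cox6a1 and Cox7a1, below the lowest control, and Cox6a2, above the highest.

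Levels of different genes were compared per kilobase of the longest annotated transcript. In knockouts 1 and 2 Cox4i1 was the most abundant at 464 ± 42.7 per kb, followed by Cox6a1 at 339 ± 30.1 and Cox7a2 at 283 ± 25.5 (SD, n = 2). In controls the same genes led, at 522 ± 17.02, 364 ± 17.8 and 304 ± 18.7 per kb (SD, n = 3). Which of the first 2 leads depends on the length. Per kb of the union of all exons, tried after seeing the data, Cox6a1 was at 299.7 ± 26.6 and Cox4i1 at 229 ± 21.1 in knockouts, and Cox6a1 at 321 ± 15.8 and Cox4i1 at 258 ± 8.40 in controls. By the longest transcript, in knockouts Ndufa4 was at 141 ± 12.51 per kb and Cox6a2 at 89.0 ± 0.685, with Cox7a1 at 80.8 ± 14.4, which is within its spread of Cox6a2. Cox4i2 at 54.0 ± 3.97 and Lonp1 at 49.9 ± 1.87 were neighbours that did not differ beyond their spread, and Ndufa4l2 at 40.4 ± 8.41 came last. In controls Ndufa4 was at 206 ± 5.61, Cox6a2 at 137 ± 3.85, Cox7a1 at 70.1 ± 2.79 and Lonp1 at 30.2 ± 1.71 per kb. Cox4i2 at 1.75 ± 1.33 and Ndufa4l2 at 1.66 ± 0.974 per kb closed the order and did not differ beyond their spread.

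Within the first pair, Cox4i2 per length was 11.5% and 11.8% of Cox4i1 in knockout embryos 1 and 2, 0.241% in the library labelled knockout 3, and 0.112%, 0.620% and 0.281% in controls 1 to 3. The ratio was 34.5-fold higher in knockouts, and 59.2-fold without control 2, yet Cox4i1 remained the major transcript in both. The Ndufa4l2 to Ndufa4 ratio was 23.0% and 35.1% in knockout embryos 1 and 2, 0.593% in the library labelled knockout 3, and 0.324%, 1.31% and 0.802% in controls 1 to 3. That ratio was 35.8-fold higher in knockouts, with Ndufa4l2 higher and Ndufa4 lower. The fold was 51.6 without control 2, 28.3 from knockout 1 alone and 43.2 from knockout 2 alone. The percentages depend on the transcript length used, and with the union of all exons the Cox4i2 ratio was 21.9% in knockouts and 0.637% in controls, while the fold between the groups does not change with length.

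In the muscle pairs the ratios moved less and in opposite directions. Cox6a2 per length was 24.8% and 27.8% of Cox6a1 in knockout embryos 1 and 2, 45.3% in the library labelled knockout 3, and 35.4%, 38.4% and 39.5% in controls 1 to 3. Every control was above both knockouts, and the library labelled knockout 3 was above every control. Cox7a1 was 30.2% and 26.7% of Cox7a2 in knockout embryos 1 and 2, 22.8% in the library labelled knockout 3, and 22.0%, 23.4% and 23.9% in controls 1 to 3. The knockouts were both above the controls in this ratio although neither gene alone separated the groups. As differences of log2 ratios, knockouts minus controls, the 4 pairs gave 4.41 for Cox4i2/Cox4i1, 4.56 for Ndufa4l2/Ndufa4, -0.51 for Cox6a2/Cox6a1 and 0.29 for Cox7a1/Cox7a2. Within litter 1 these were 5.01, 4.87, -0.50 and 0.45, and within litter 2 they were 3.78, 4.30, -0.46 and 0.19.

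**Figure D2:**
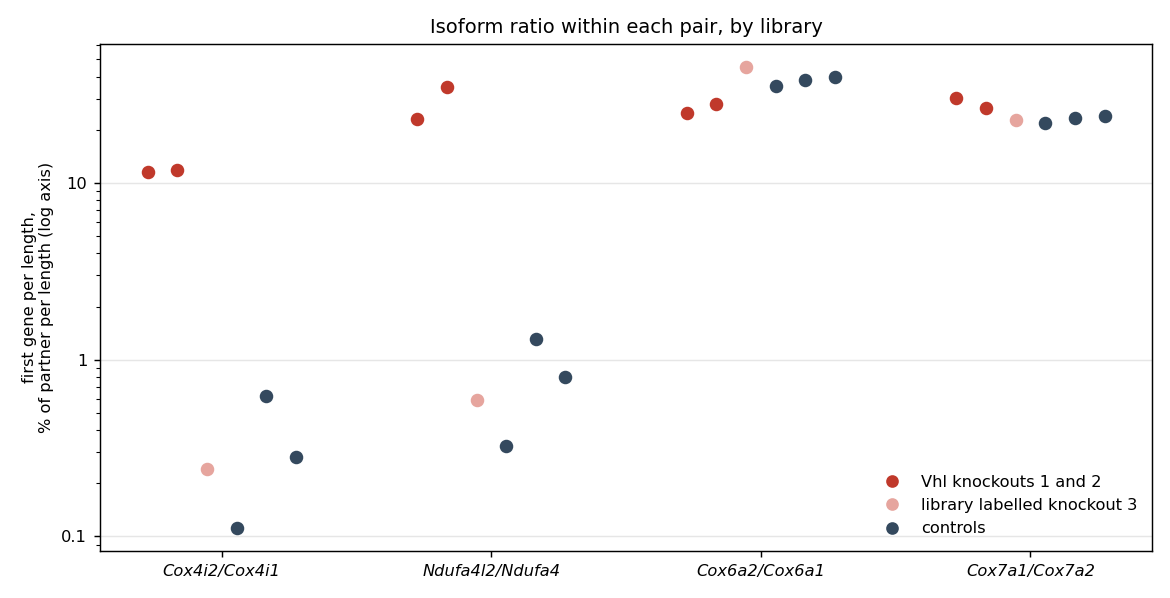
First gene of each pair per length as a percentage of its partner per length (log y axis) in each library, with red for knockouts 1 and 2, pink for the library labelled knockout 3 and dark blue for the 3 controls. The first 2 pairs stand at 11.5% to 35.1% in knockouts and at 0.112% to 1.31% in controls, whereas the muscle pairs differ far less.

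The transcripts of both partners were also summed. The 2 forms of subunit 4 together were at 551 and 485 per kb in knockout embryos 1 and 2, 519.8 in the library labelled knockout 3, and 542, 520.3 and 509.8 in controls 1 to 3. These totals overlapped. Between the group means Cox4i2 differed by 52.2 per kb and Cox4i1 by -58.3 per kb. These sizes depend on the length, for with the union of all exons, tried after seeing the data, they were 48.6 and -28.8 per kb. The summed mean of the knockouts was then 7.64% above that of the controls, whereas by the longest transcript its difference was -1.15%, and the totals overlapped either way. The Ndufa4 pair together was at 184 and 178 per kb in knockout embryos 1 and 2, 203 in the library labelled knockout 3, and 207, 202 and 212 in controls 1 to 3. Both knockouts were below all controls, with a gain of 38.8 per kb in Ndufa4l2 beside a change of -64.6 per kb in Ndufa4. The Cox6a total was also lower, at 450.1 and 407 per kb in knockout embryos 1 and 2, 462 in the library labelled knockout 3, and 513, 509.6 and 480.3 in controls 1 to 3, and the library labelled knockout 3 was below the controls as well. The Cox7a total overlapped between groups, at 392.1 and 335.6 per kb in knockout embryos 1 and 2, 359 in the library labelled knockout 3, and 395, 354 and 375 in controls 1 to 3.

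**Figure D3:**
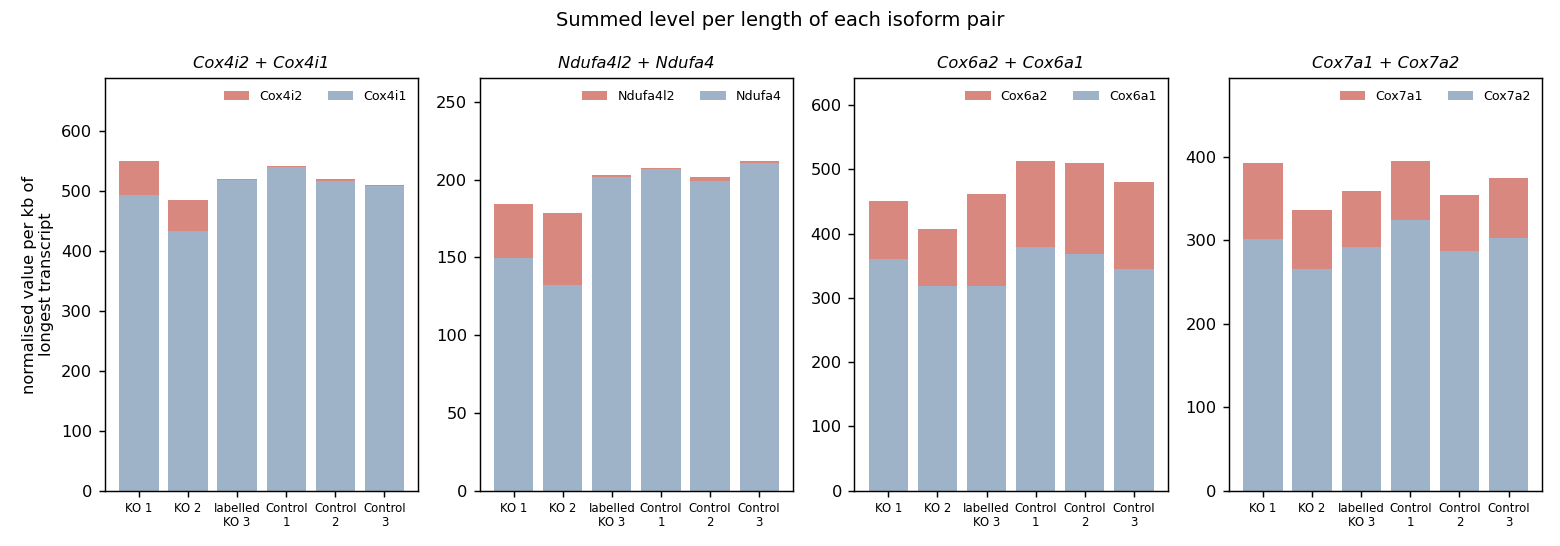
Stacked level per kb of the longest transcript (y axis from 0) of both partners of each pair in each library, with the low-oxygen or muscle form in red on top of the common form in blue. The summed subunit 4 transcripts overlap between groups while the summed Ndufa4 pair is lower in knockouts 1 and 2, at 184 and 178 against 202 to 212 per kb in controls.

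The genes most like these in profile were sought over all 6 libraries, by the root mean square difference of log2(value + 1) centred on the control mean. Out of all named genes, the one nearest to Cox4i2 was Ndufa4l2, at 0.22, and the nearest to Ndufa4l2 was Cox4i2. The profiles were not scaled, so only genes with a rise of like size could be near these 2. Both were also chosen with this contrast in view, so their nearness is a description. For both, the next were the same 4 genes. Measured from Cox4i2 these were the histocompatibility gene H2-Ab1 at 0.27, the mitochondrial protein gene Mgarp at 0.33, the potassium channel subunit gene Dpp6 at 0.37 and Kbtbd11 at 0.51. Mgarp was at 81.2 and 65.9 in knockout embryos 1 and 2, 5.31 in the library labelled knockout 3 and 2.66 to 7.80 in controls. The 5 profiles nearest to Cox6a2 were those of Klhdc8b at 0.05, Clip4 at 0.06, Mdga1 at 0.06, Eci1 at 0.06 and Ccdc189 at 0.07. Eci1 encodes an isomerase of fatty acid oxidation and was at 48.1 and 43.2 in knockout embryos 1 and 2, 73.4 in the library labelled knockout 3 and 69.6 to 74.7 in controls. Ndufa4 came at place 19 for likeness to Cox6a2, at 0.09.

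The rest of complex IV gave the setting for these changes. Of 16 further structural subunit genes 13 were measured, and limma called 0 of them in knockouts 1 and 2, 1 having an unadjusted p under 0.05. The edgeR test also called 0, with 2 under 0.05, and DESeq2 called 1, mt-Co1, lower. Their median log2 difference was -0.15, with 12 of 13 below 0, beside a median of -0.01 over all genes, of which 51.8% were below 0. The 2 knockouts did not share this lean for every gene. For Cox5b, Cox6b1, Cox7b, Cox7c, Cox8a and mt-Co2 knockout 1 was inside or above the control range, and only knockout 2 was below it. Cox7c was at 114.7 and 94.0 in knockouts 1 and 2 and 103.1 to 106.7 in controls. The 2 subunit genes with the smallest p were Cox7a2l, a relative of Cox7a2 that joins respiratory complexes, at -0.22 ± 0.09 (SE, adjusted p = 0.23), and the muscle form Cox8b at -0.41 ± 0.18 (SE, adjusted p = 0.29). The catalytic subunit mt-Co1, encoded by mitochondrial DNA, was at 15856 and 13337 in knockouts 1 and 2 and 17764 to 18602 in controls, a log2 difference of -0.32 ± 0.22 (SE, adjusted p = 0.51). The differences of Cox4i1, Cox6a1, Cox7a1 and Cox7a2 lay within the range of the other subunits, -0.41 to 0.30, and those of Cox4i2, Ndufa4l2, Ndufa4, Cox6a2 and Lonp1 lay outside it.

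Of 30 listed genes for assembly of complex IV, its cytochrome c and its mitochondrial messenger RNAs, 28 were measured, 1 rose and 1 fell (limma), with a median of -0.09. Higd1a, a small inner membrane protein that binds complex IV and is induced by low oxygen, was at 172 and 149 in knockout embryos 1 and 2, 54.6 in the library labelled knockout 3, and 50.1, 55.8 and 55.3 in controls. All controls were far below both knockouts, and the log2 difference was 1.56 ± 0.09 (SE, limma adjusted p = 0.000174). Lrpprc, which stabilises messenger RNAs made from mitochondrial DNA, fell to 143 and 137 in knockouts 1 and 2, with 181 in the library labelled knockout 3, against 170 to 189 in controls. Its log2 difference was -0.34 ± 0.07 (SE, limma adjusted p = 0.048), edgeR did not call it (adjusted p = 0.062), and without any 1 of the 5 libraries limma's adjusted p was 0.10 to 0.17. Copper and haem factors such as Sco1 and Cox15 had log2 differences of -0.18 ± 0.10 and -0.10 ± 0.08 (SE) and did not pass.

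Among 13 genes named in work on the isoform switch 1 fell and 0 rose. Hif1a was at 185 and 163 in knockout embryos 1 and 2, 473 in the library labelled knockout 3, and 457, 405 and 447 in controls. That is a log2 difference of -1.32 ± 0.09 (SE, limma adjusted p = 0.000253), and it concerns the messenger, not the protein that VHL controls. The messengers of factors reported to act on the human COX4I2 promoter were near their control levels, though Cxxc5 was below every control in both knockouts. Chchd2 was at 248 and 240.2 in knockouts 1 and 2 and 243.5 to 250.7 in controls, Rbpj at 82.1 and 72.6 in knockouts and 78.2 to 86.7 in controls, and Cxxc5 at 40.6 and 39.3 in knockouts and 43.8 to 45.1 in controls. None of these 3 passed, with adjusted p of 0.92, 0.67 and 0.39 (limma). Ppargc1a and Esrrg, which drive mitochondrial genes in muscle, missed the threshold (limma adjusted p = 0.10 and 0.094) but were called lower when litter was a block in the fit.

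Lonp1 was set beside other genes of mitochondrial protein quality control. Of 15 proteases and chaperones listed beside it, 0 rose and 1 fell in knockouts 1 and 2 (limma), with a median of -0.07 and a highest log2 difference of 0.10. The one that fell was the chaperonin gene Hspd1, at 662 and 626 in knockout embryos 1 and 2, 797 in the library labelled knockout 3, and 855, 804 and 809 in controls (log2 -0.35 ± 0.08 SE, limma adjusted p = 0.049), and that call too was lost without any 1 of the 5 libraries, at 0.11 to 0.17. The AAA proteases of the inner membrane, Afg3l2 and Yme1l1, had log2 differences of -0.03 ± 0.09 and 0.10 ± 0.10 (SE). Clpx, the partner of the matrix protease Clpp, was at 45.4 and 39.4 in knockouts 1 and 2 and 45.4 to 51.2 in controls.

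For scale, 16 established HIF targets were all called higher (limma), with a median log2 difference of 1.43 and a range of 0.57 to 2.51. Cox4i2 and Ndufa4l2 exceeded all of them on this scale, including the carbonic anhydrase gene Car9 at 2.51 ± 0.21 (SE, limma adjusted p = 0.000722). Lonp1, at 0.72, lay above Mxi1 at 0.57 ± 0.10 and below the other 15. Without knockout 1, and likewise without knockout 2, the calls of Egln3, Ankrd37, Adm and Mxi1 were lost, that of Mxi1 also without control 3. Some of these targets had earlier been reported as changed in these libraries, so their direction is no independent evidence.

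**Figure D4:**
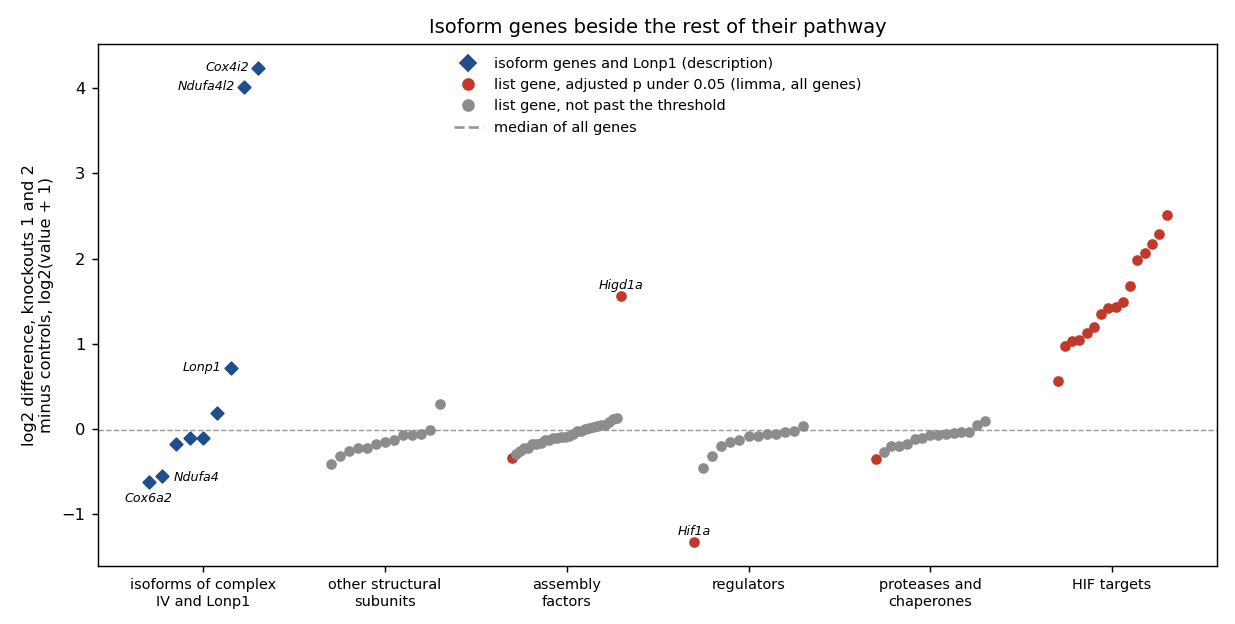
Log2 difference of knockouts 1 and 2 minus controls, on log2(value + 1), for the 9 genes (blue diamonds) and for genes of 5 lists (red where limma's adjusted p over all genes is under 0.05, grey otherwise), with the median of all genes as a dashed line. Cox4i2 at 4.24 and Ndufa4l2 at 4.01 stand above all 16 HIF targets, and the other structural subunits lie between -0.41 and 0.30.

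In RNA of whole ventricles, fewer cells of a type and less RNA per cell cannot be told apart. This bears on Cox4i2 and Ndufa4l2, which in adult mice are known from pericytes and smooth muscle of blood vessels as well as from cells under low oxygen. Of 10 genes listed for those cells, 4 were called higher in knockouts 1 and 2 and 0 lower, and their sum was 2859 and 2832 in knockout embryos, 1685 in the library labelled knockout 3 and 1595 to 1888 in controls. The 4 were Acta2, Tagln, Cnn1 and Notch3, and embryonic heart muscle itself expresses the first 3. Each of these 4 calls was lost without knockout 1 and without knockout 2, and that of Notch3 also without any 1 control. The call of Acta2 was also lost without control 2, that of Tagln without control 3, and that of Cnn1 without control 2 or 3. The pericyte gene Rgs5 was at 1.37 and 1.14 in knockouts 1 and 2 and 0.777 to 1.85 in controls. The smooth muscle myosin Myh11 was at 1.37 and 1.66 in knockouts and 0.666 to 3.88 in controls, so both were near 0 in every library. Pdgfrb, a receptor of mural cells, was at 46.8 and 65.5 in knockouts and 34.4 to 49.2 in controls (limma adjusted p = 0.33). Kcnj8 was low but above every control in both knockouts, at 2.42 and 3.07 against 1.44 to 2.20 (limma adjusted p = 0.36). Abcc9 and Cspg4 had log2 differences of 0.12 ± 0.10 and 0.15 ± 0.16 (SE) and were not called. The share of a changed cell make-up in the rise of Cox4i2 and Ndufa4l2 was not tested.

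Markers of other cells moved to different extents. Of 7 epicardial genes 3 were called higher, Wt1, Krt19 and Krt8, with sums of 761 and 625 in knockouts 1 and 2 and 295 to 365 in controls, and 6 of the 7 had an unadjusted p under 0.05 (limma). Of 8 endothelial and endocardial genes 1, Emcn, was called higher, with sums of 1618 and 1625 in knockouts and 1409 to 1500 in controls, and 4 of the 8, Pecam1, Cdh5, Tie1 and Emcn, had an unadjusted p under 0.05 (limma). Of 5 fibroblast genes, 4 measured macrophage genes and 6 erythroid genes 0 were called by limma or edgeR, and in limma 1 of them, Dcn, had an unadjusted p under 0.05. The fibroblast sums were 1766 and 1077 in knockouts and 896 to 1396 in controls. The macrophage sums were 18.1 and 17.1 in knockouts and 13.8 to 28.5 in controls, and the erythroid sums were 5575 and 12625 in knockouts and 5201 to 11688 in controls. Of 6 genes of skeletal muscle 2 were measured, beside which the muscle forms Cox6a2 and Cox7a1 can be set. The others, Myod1, Myog, Myf5 and Myf6, had no row, so the measured ones do not mark skeletal muscle cells here. Ckm, the muscle creatine kinase, fell to 9.78 and 7.71 in knockouts, against 17.6 to 33.8 in controls, while the actin gene Acta1 rose to 390 and 378 in knockouts, against 137 to 192 in controls. Without knockout 1 the calls of Ckm, Emcn, Wt1 and Krt8 were lost, and without knockout 2 those of Ckm, Emcn and Wt1. The call of Krt8 was also lost without any 1 control, that of Emcn without control 2 or 3, and that of Ckm without control 3. Those of Acta1 and Krt19 held without any 1 library.

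Promoter windows of RefSeq on GRCm38.p6, from 250 bases before to 50 bases after the start, were at hand for 5 of the 9 genes, Cox6a1, Cox7a1, Cox7a2, Lonp1 and Ndufa4. The core letters bound by HIF, ACGTG and GCGTG, were searched on both strands. Of 32851 such windows 19.6% held ACGTG, 32.4% held GCGTG and 43.8% held at least 1 of them. The windows of Lonp1, which rose, and Ndufa4, which was lower, are shown on the strand of the gene with these letters in capitals, CACGC and CACGT being the reverse of the 2 motifs.
Lonp1: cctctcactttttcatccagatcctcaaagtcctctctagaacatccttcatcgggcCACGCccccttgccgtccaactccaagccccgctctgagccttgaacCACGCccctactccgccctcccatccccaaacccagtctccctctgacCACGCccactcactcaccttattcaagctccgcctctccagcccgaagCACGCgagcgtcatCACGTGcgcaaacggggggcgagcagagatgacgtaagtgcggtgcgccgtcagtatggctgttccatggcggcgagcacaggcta
Ndufa4: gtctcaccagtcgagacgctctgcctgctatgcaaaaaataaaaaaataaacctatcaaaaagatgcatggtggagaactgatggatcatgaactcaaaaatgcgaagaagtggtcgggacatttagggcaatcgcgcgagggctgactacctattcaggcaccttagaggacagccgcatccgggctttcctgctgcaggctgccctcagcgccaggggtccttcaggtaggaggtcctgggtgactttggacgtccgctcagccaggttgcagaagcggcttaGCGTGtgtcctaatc
The Lonp1 window (chr17:56626854-56627153, minus strand) held 6 matches, of which 2 overlap as one palindrome read on both strands, at 35 and 36 bases before the start. The Ndufa4 window (chr6:11907401-11907700, minus strand) held 1 match, after the start. Cox7a1 held 3, Cox7a2 held 1 and Cox6a1 held 0, and a match of these letters is a description, not a site shown to be bound. The RBPJ core TGGGAA and the estrogen-related receptor site TGACCTT were also searched. They were in 25.6% and 4.72% of all windows and in none of these 5.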

How the data were processed

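Polyadenylated RNA of 6 single embryonic ventricles was sequenced as 75-base single reads without strand information. Per the submitters' processing notes, CASAVA 1.8.2, cutadapt 1.3 and RSEM 1.2.3 were used with GRCm38, and for annotation release, gene filter and scaling the sources used here give nothing. The deposited file has 1 normalized signal per gene and library. In each library 100% of values were whole multiples of 1 step, within 0.01 reads, so whole reads were recovered, and the steps equalled those of edgeR's trimmed mean scaling. No gene reached a value of 1 in fewer than 3 libraries. Cox4i2 reached 1 in 4 libraries, Ndufa4l2 in 5 and the other members in 6. Outside knockouts 1 and 2, Cox4i2 reached 1 only in control 2 at 2.35 and control 3 at 1.05. It therefore reached 1 in 3 libraries only with the knockouts, where it is high. Ndufa4l2 reached 1 also in the library labelled knockout 3 and in controls 2 and 3. Identifiers were matched to GENCODE M21, which named 13675 of 13843 genes.

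In R 4.3.3, the trended test of limma 3.58.1 was run on log2(value + 1) for all genes with knockouts 1 and 2 and 3 controls, Benjamini-Hochberg adjusted p under 0.05. The design allowed for counts, and limma was used because values were normalized. edgeR 4.0.16 and DESeq2 1.42.0 on recovered reads, other pseudocounts, a filter, litter as a block and leaving out libraries were alternatives. The limma step was tested on simulated data. Deviations from group means correlated at 0.20 within litter 1 and 0.28 within litter 2, the labels naming those litters as the pairs. The other combinations of a knockout and a control gave -0.33 to 0.11. The knockout mean used here included the library labelled knockout 3. P-values measure the spread between single embryos. Members and lists were chosen with earlier results of these data known. By the plan, named genes were the members, label checks, up to 5 called genes per list or else the 2 with the smallest p, and the 5 nearest profiles of Cox4i2, Ndufa4l2 and Cox6a2. For the HIF targets this plan was not kept, as those named were not the 5 with the smallest p. Epas1, a planned label check, was at 65.5 and 60.4 in knockouts 1 and 2 and 55.1 to 64.9 in controls. Other genes named were chosen after their values were seen.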

Additional observations from a re-analysis of the deposited data

How the results depend on the processing

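Under the 12 alternatives run, the 5 called members were the same genes except with all 6 libraries as labelled, where 0 were called and no member reversed. The log2 ratio difference of Cox4i2/Cox4i1 was 5.08 with a pseudocount of 0.25, 3.01 with 5, 5.02 with edgeR, 5.10 with DESeq2 and 2.89 with all 6 libraries. That of Ndufa4l2/Ndufa4 was 3.30 with a pseudocount of 5, 5.13 with DESeq2 and 2.98 with all 6. With all 6, Cox6a2/Cox6a1 was -0.26 and Cox7a1/Cox7a2 was 0.19. A pseudocount shrinks genes near 0 by construction, and the sixth library lies near the controls. Leaving out 1 library gave 4.10 to 4.74, 4.25 to 4.86, -0.60 to -0.43 and 0.21 to 0.38 in the order of the pairs above. The replicate block, which uses litters 1 and 2 alone, raised the counts over all genes to 681 higher and 444 lower, beside 416 and 172, and gave 5 lower rather than 3 in the 4 lists of complex IV, its assembly, regulators and proteases. It changed no call of a member. DESeq2 called 278 genes lower and 6 lower in these lists, and all 6 libraries gave 0 in each count. Leaving out 1 library gave 146 to 297 higher and 44 to 90 lower over all genes, with 146 without knockout 1, 236 without knockout 2, 219 without control 2 and 259 without control 3 (lower 44, 55, 60 and 83, and 90 without control 1), and 1 higher and 1 to 2 lower in the lists. With 1 knockout left, it was assumed to vary like the controls. With exon union lengths the control ratios were 0.637%, 42.8% and 30.0% for the Cox4, Cox6a and Cox7a pairs. The cause of the other shifts was not tested. The 4 to 31 reads of Cox4i2 and Ndufa4l2 in controls limit the precision of their folds.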

Other observations

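Among controls the values of Cox4i2 and Ndufa4l2 followed 1 order, lowest in control 1 and highest in control 2. Cox4i2 was at 0.444, 1.05 and 2.35 and Ndufa4l2 at 0.666, 1.68 and 2.60 in controls 1, 3 and 2. These are 3 libraries, the order was noticed after the values were seen, and its source was not tested.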
